A study of Mus musculus with 6 samples.

Results

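Glutathione S-transferases join the thiol of glutathione to reactive electrophiles, such as quinones and the aldehydes left by lipid peroxidation, so that these can be exported and broken down. The soluble enzymes fall into classes named by Greek letters, among them mu, pi, theta and omega, the kappa enzyme sits in mitochondria and peroxisomes, and a separate membrane-bound family (MAPEG) holds the microsomal enzymes. In the brain, astrocytes are known as a main site of glutathione conjugation, and several of these genes are described as targets of the transcription factor Nrf2, which acts through the antioxidant response element. The genes described here are 10 members that were listed by symbol: *Gstm1*, *Gstm2*, *Gstm4* and *Gstm5* of the mu class, *Gstp1* (pi), *Gstt1* (theta), *Gsto1* (omega), *Gstk1* (kappa), and the microsomal *Mgst1* and *Mgst3*. All 10 had an entry among the 17193 Ensembl gene identifiers of the deposited tables.

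The libraries came from astrocytes that were captured with anti-ACSA-2 microbeads from whole brains of wild-type C57BL/6 mice aged 3 months. The Mock group, which the study's own tables call saline, and the Quinpirole group, which received an agonist of the dopamine receptor DRD2, held 3 libraries each. The dose and duration of quinpirole for the sequenced mice were not given in the sources used here, nor whether mice were pooled. A p-value therefore sets the group difference against the spread between these libraries, which may differ from the spread between mice. The study's interest lay in glutathione in astrocytes and its control by DRD2. Each value is a deposited FPKM, that is, a fragment number scaled by transcript length and by the size of the library, which allows levels to be compared between genes.

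Depth was estimated from the steps between the lowest FPKM values and lay between 22300000 and 27700000 fragments per library, which puts 140 to 238 fragments behind each value of *Gstk1* and 26690 to 33552 behind each value of *Gstm1*. The largest counting error (coefficient of variation) of a member in any library was therefore between 0.612% for *Gstm1* and 8.44% for *Gstk1*, and it covers counting alone. Of the astrocyte markers, *Gfap*, *Aldoc*, *Slc1a3* and *Aldh1l1* were at 165.2 FPKM or more in each of the 6 libraries. *Aqp4*, *Gja1*, *Atp1b2* and *Sox9* lay between 42.3 and 179.5 FPKM. Lowest were *Slc1a2*, the main glial glutamate transporter, between 5.15 and 8.55 FPKM, and *S100b*, between 5.01 and 6.18 FPKM. Summed over 10 astrocyte markers, the level was 1489 to 1650 FPKM in the Mock libraries and 1478 to 1508 in the Quinpirole libraries, and 2 of the 10 passed the test, both lower (*Slc1a2* and *Atp1b2*, which encodes ACSA-2 itself). The 9 microglial markers reported summed to 579.1 to 621.8 and 604.5 to 674.3 FPKM, the 10 neuronal markers to 74.0 to 79.3 and 86.4 to 92.9 FPKM with *Snap25*, *Rbfox3* and *Slc17a7* at 0.198 FPKM or less, and the 10 fibroblast and mural cell markers to 2675 to 2829 and 2834 to 2993 FPKM. Most of the last sum was *Acta2*, which did not pass (adjusted p = 0.171, limma), whereas *Col1a1* (log2 fold change -0.34) and *Pdgfrb* (-0.30) passed as lower. The neuronal *Stmn2* (0.22) and *Olig1* of oligodendrocyte precursors (0.15) passed as higher, and no further marker reported here passed. The 9 oligodendrocyte markers found, with *Mog* and *Mobp* at 0.108 FPKM or less, summed to between 161.0 and 181.0 FPKM in all libraries. The 7 precursor markers found summed to 308.6 to 317.3 FPKM in the Mock and 330.8 to 353.0 FPKM in the Quinpirole libraries. Most of the precursor sum was *Olig1* (261.4 to 301.2 FPKM), whereas *Pdgfra* was at 0.716 FPKM or less and *Sox10* at 0.399 FPKM or less. *Cspg4* had a lower mean (log2 fold change -0.19) and did not pass. The 8 endothelial markers, with *Pecam1* at 0.0596 FPKM or less, lay between 50.7 and 55.2 FPKM in all libraries, and the 9 ependymal and choroid plexus markers between 173.2 and 192.7 FPKM. The part of these other cells in the members' values was not tested. In bulk RNA, fewer cells of a type and less RNA per cell cannot be told apart.

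The pi-class pair is the place where sequence limits what can be measured, so it is shown first. *Gstp1* and *Gstp2* lie side by side on chromosome 19 and encode proteins from coding sequences of 633 bases that are 98.1% identical. The first 60 coding bases (GENCODE M21, GRCm38, 5′ to 3′) hold 6 of the 12 differences between them, and capitals mark the bases that differ.
Gstp1: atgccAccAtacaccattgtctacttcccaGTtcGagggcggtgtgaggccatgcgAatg
Gstp2: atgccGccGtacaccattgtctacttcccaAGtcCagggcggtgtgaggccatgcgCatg
Of the words of 50 bases in the longest *Gstp1* transcript, 62.3% also occurred in *Gstp2*, and 45.6% in the pseudogene *Gstp-ps*. For *Gstm1* 23.1% of words were shared with other genes, for *Gstm2* 9.4% and for *Gstm5* 10.1%, the last all with the antisense gene *4933431E20Rik*, whose exons overlap 178 bases of *Gstm5* on the other strand. The library kit, by its name, keeps no strand, so reads from the overlap could belong to either gene. *Gstm4*, *Gstt1*, *Gsto1*, *Gstk1*, *Mgst1* and *Mgst3* shared no word (0.0%).

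The promoters were searched for the core of the antioxidant response element, because this is the sequence through which Nrf2 acts. RefSeq (GRCm38.p6) gave 13 windows for the 10 members, each from 250 bases before a transcript start to 50 bases after it. On either strand, the core TGACNNNGC was found in 2 of the 13 windows, those of *Gstm5* and *Mgst1*, and in 12.4% of all 32851 promoter windows. The wider form TGANNNNGC, which includes the core, was found in 6 of the 13 windows, which belong to 5 members, and in 41.3% of all windows. The 80 bases before the start are shown for both genes with the core, for *Gstp1*, whose window held 3 matches to the wider form, and for *Gsto1*, the member that passed the test below, whose window held none. Capitals mark matches to the wider form on either strand. The stretches are chr3:107895774-107895853 on the plus strand for *Gstm5*, chr6:138140447-138140526 on the plus strand for *Mgst1*, chr19:4037913-4037992 on the minus strand for *Gstp1* and chr19:47854893-47854972 on the plus strand for *Gsto1*.
Gstm5: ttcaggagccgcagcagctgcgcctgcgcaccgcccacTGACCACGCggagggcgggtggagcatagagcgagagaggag
Mgst1: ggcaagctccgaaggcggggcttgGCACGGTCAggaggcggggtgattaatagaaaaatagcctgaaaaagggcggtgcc
Gstp1: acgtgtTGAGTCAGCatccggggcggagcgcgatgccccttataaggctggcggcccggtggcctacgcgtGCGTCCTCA
Gsto1: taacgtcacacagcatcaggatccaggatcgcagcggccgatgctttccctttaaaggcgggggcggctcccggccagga
The windows of *Gstm4* overlap and hold the same match. A match describes the letters in a window and is not a bound site. Bases outside the windows were not searched, so a window without a match does not show that a gene lacks the element.

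The levels of the members spanned more than 2 orders of magnitude, and 1 gene made up most of the sum. *Gstm1* had a mean of 925.3 ± 41.5 FPKM in the Mock libraries (SD, n = 3), which was 10 times the mean of the next member and the 31st highest mean over all libraries among the 17193 identifiers. *Mgst1* and *Gstp1* followed with 92.2 ± 4.93 and 88.2 ± 2.61 FPKM (SD, n = 3 each), and their Mock libraries overlapped. Below them came *Gstm5*, *Gstt1*, *Gstm2*, *Gsto1* and *Mgst3*, each apart from its neighbour in the Mock libraries by a ratio of means between 1.18 and 2.02. *Gstk1* and *Gstm4* were lowest, at 4.55 ± 0.394 and 4.23 ± 0.162 FPKM (SD, n = 3 each), with overlapping libraries. Over all 6 libraries, the ranges of *Gstt1* and *Gstm2* and those of *Gstm2* and *Gsto1* overlapped as well.

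**Figure D1:**
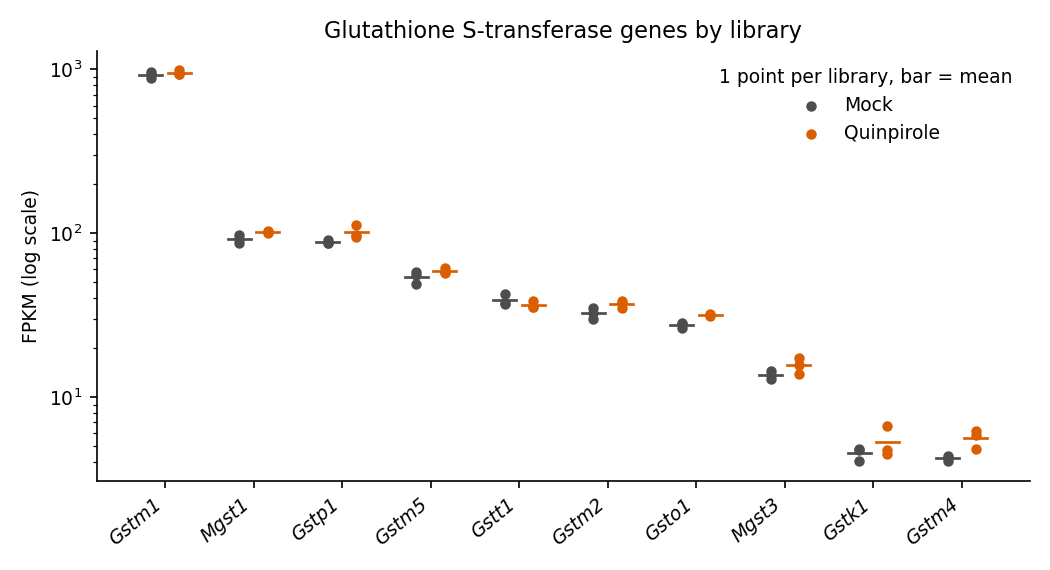
FPKM of the 10 members in each library, on a log scale, ordered by their Mock mean. Grey points are Mock and orange points Quinpirole libraries, and bars are group means (n = 3). *Gstm1* lies 10 times above the next gene, and every Quinpirole point lies above every Mock point for *Mgst1*, *Gstp1*, *Gstm2*, *Gsto1* and *Gstm4*.

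The comparison of the groups asked whether these genes were expressed at another level after the DRD2 agonist. After quinpirole, 9 of the 10 members had a higher mean and *Gstt1* a lower mean, but the differences were small and 1 member, *Gsto1*, passed the test. Over all 12255 genes tested, 53.8% had a higher mean. The test was limma on log2(FPKM + 1) for genes with a mean of at least 1 FPKM, two-sided, with Benjamini-Hochberg adjustment over all genes tested and a threshold of 0.05, and a log2 fold change on this scale understates the change of weakly expressed genes. The 1 member called of 10 stands beside 10.9% of all genes called in either direction and 5.74% called higher. At an unadjusted p under 0.05, 5 members were higher and 0 were lower by limma, compared with 17.3% and 14.0% of all genes. In 5 of the 10, every Quinpirole library lay above every Mock library, compared with 20.0% of all genes. The median log2 fold change was 0.17 for the members and 0.02 for all genes tested.

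In the omega class, *Gsto1* rose, a call that was lost in 11 of 17 alternatives. Its product has a cysteine in the active site and reduces dehydroascorbate and mixed disulfides more readily than it conjugates electrophiles. The gene (ENSMUSG00000025068, chr19:47854970-47864790, plus strand, GRCm38) had 28.0, 26.5 and 28.2 FPKM in Mock libraries 1 to 3, and 31.4, 32.0 and 31.8 FPKM in Quinpirole libraries 1 to 3. All 3 Quinpirole libraries lay above all 3 Mock libraries, and they differed from each other by less than the Mock libraries did. The counting error of *Gsto1* was up to 3.46%, whereas the coefficient of variation was 3.38% in the Mock and 0.939% in the Quinpirole libraries. The spread of the Quinpirole libraries was thus below the counting error, and no result is drawn from their closeness. The standard error below rests in part on this spread. The means were 27.6 ± 0.932 and 31.7 ± 0.298 FPKM (SD, n = 3 each), which is 0.19 on the log2 scale (standard error 0.04, 95% interval 0.10 to 0.29, adjusted p = 0.0322, limma), or 14.3% on the scale of FPKM + 1. After a correction for transcript length the log2 fold change was 0.10 (adjusted p = 0.156, limma), and across the alternatives the adjusted p ran from 0.0267 to 0.236. With 1 library left out, *Gsto1* passed without Mock 3 (adjusted p = 0.0419, limma) and did not pass without Mock 1 (0.0824), Mock 2 (0.114), Quinpirole 1 (0.0738), Quinpirole 2 (0.0979) or Quinpirole 3 (0.068), while its log2 fold change stayed between 0.17 and 0.21. This loss was not particular to *Gsto1*: calls over all genes went from 1339 to 1215 without Mock 3 and to 6, 3, 11, 25 and 210 in the other fits, in that order.

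In the mu class, all 4 members had higher means, with separate groups for *Gstm2* and *Gstm4* and overlapping groups for *Gstm1* and *Gstm5*. *Gstm1* (ENSMUSG00000058135, chr3:108012255-108017973, minus strand) had 878.6, 939.7 and 957.7 FPKM in the Mock libraries and 932.9, 983.9 and 928.5 FPKM in the Quinpirole libraries. The groups overlapped, and the lowest value of all was Mock 1. The log2 fold change was 0.04 (standard error 0.05, 95% interval -0.07 to 0.15, adjusted p = 0.64, limma), and it turned negative with quantile normalization (-0.11) or with a correction for the length of transcripts (-0.08).

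*Gstm2*, whose human counterpart conjugates aminochrome, an oxidation product of dopamine, had 29.9, 32.6 and 34.9 FPKM after Mock treatment and 37.6, 38.4 and 35.0 FPKM after quinpirole (ENSMUSG00000040562, chr3:107981702-107986453, minus strand). The groups did not overlap, but Mock 3 and Quinpirole 3 were nearly equal. The log2 fold change was 0.19 (standard error 0.06, 95% interval 0.04 to 0.33) with an adjusted p of 0.0967 from limma. *Gstm4* (ENSMUSG00000027890, chr3:108040408-108044894, minus strand), another mu-class enzyme, had 4.22, 4.39 and 4.07 FPKM in the Mock libraries and 4.81, 6.20 and 5.89 FPKM in the Quinpirole libraries. It showed the largest log2 fold change of the 10 members, 0.34 (standard error 0.09, 95% interval 0.13 to 0.55), with separate groups and an adjusted p of 0.052 from limma, just outside the threshold. These values rest on 178 to 271 fragments per library, which gives a counting error of up to 7.5%. The coefficient of variation was 3.83% in the Mock libraries, less than this error, and 13.0% in the Quinpirole libraries. *Gstm4* passed the threshold under robust estimation of the variances (adjusted p = 0.0444, limma), and its adjusted p under the alternatives reached 0.207. *Gstm5* (ENSMUSG00000004032, chr3:107895821-107898686, plus strand) had 48.7, 55.3 and 57.5 FPKM and then 57.1, 61.3 and 57.8 FPKM. Here Mock 3 lay above Quinpirole 1, and the log2 fold change of 0.13 (standard error 0.06, 95% interval -0.02 to 0.28) had an adjusted p of 0.221 from limma.

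All mu-class genes tested lie in 1 cluster on chromosome 3, and each was set against *Gstm1* in the same library. *Gstm2* was at 3.41%, 3.47% and 3.64% of *Gstm1* in the Mock libraries and at 4.03%, 3.91% and 3.77% in the Quinpirole libraries. *Gstm4* went from 0.48%, 0.467% and 0.424% to 0.515%, 0.63% and 0.635%, and *Gstm5* from 5.54%, 5.88% and 6.00% to 6.13%, 6.23% and 6.23%. In all 3 genes the ratio was higher in every Quinpirole library than in every Mock library. The same held for *Gstm6*, which is not one of the 10 members, with 1.39%, 1.20% and 1.18% against 1.61%, 1.62% and 1.48%. *Gstm7*, also outside the 10, had 2.52%, 2.37% and 2.53% against 2.15%, 2.42% and 2.12%, with overlapping groups and a lower mean. The two-sided exact permutation p was 0.1 for each of the first 4 ratios (0.12 after Benjamini-Hochberg adjustment over the 5), which is the smallest that 3 libraries against 3 allow, and 0.2 for *Gstm7*. On the log2 scale the ratios differed by 0.15 for *Gstm2*, 0.37 for *Gstm4*, 0.09 for *Gstm5*, 0.32 for *Gstm6* and -0.15 for *Gstm7*. All 5 ratios share *Gstm1* as denominator, and its log2 fold change (0.04) was below the median of genes of like length (0.13). Without a ratio, every Quinpirole library lay above every Mock library in 20.0% of all genes. The share of all genes whose ratio to *Gstm1* separated the groups was not computed. Up to 23.1% of the *Gstm1* transcript occurs in other genes, and how the authors' pipeline assigned such reads was not given in the sources used here.

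**Figure D2:**
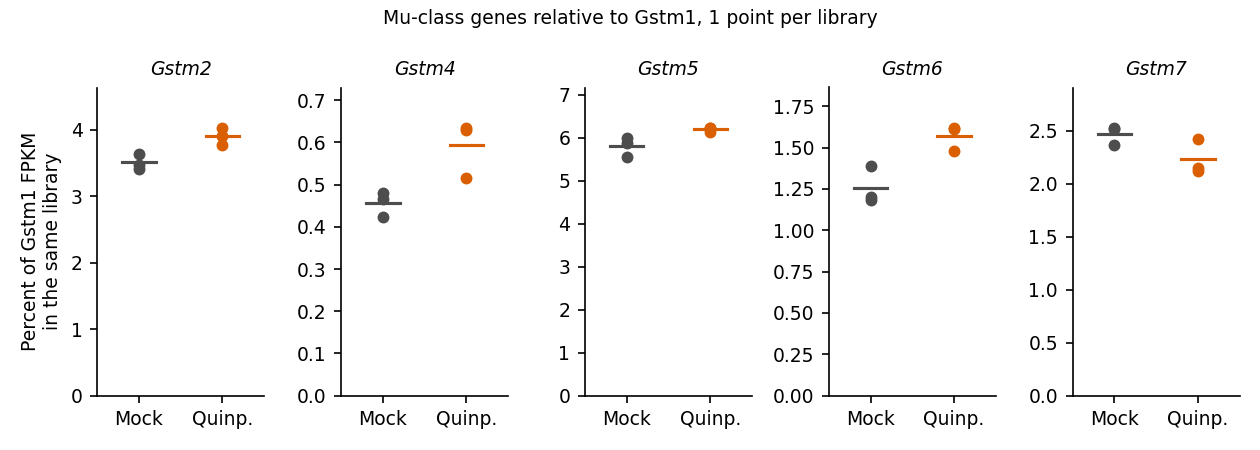
FPKM of 5 mu-class genes as a percent of *Gstm1* FPKM in the same library, with 1 point per library, bars for group means (n = 3) and axes from 0. The Quinpirole points lie above the Mock points for *Gstm2*, *Gstm4*, *Gstm5* and *Gstm6*, and the groups overlap for *Gstm7*.

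In the pi class, *Gstp1*, whose product conjugates electrophiles and also binds the stress kinase JNK, was higher in every Quinpirole library but did not pass. The gene (ENSMUSG00000060803, chr19:4035407-4037985, minus strand) had 87.0, 86.4 and 91.2 FPKM in the Mock libraries and 95.0, 112.1 and 97.9 FPKM in the Quinpirole libraries, with Quinpirole 2 standing above Quinpirole 1 and 3. The log2 fold change was 0.20 (standard error 0.06, 95% interval 0.05 to 0.35) with an adjusted p of 0.0819 from limma. *Gstp2*, its near-identical neighbour, was listed at 0 in 5 libraries and at 21.2 FPKM in Quinpirole 1. With the coding identity shown above, the split of reads between the pair is uncertain, so the sum of both was tested too, an alternative chosen after the values had been seen. The sum was 87.0, 86.4 and 91.2 FPKM in the Mock libraries and 116.2, 112.1 and 97.9 FPKM in the Quinpirole libraries, and its log2 fold change of 0.30 passed the threshold (adjusted p = 0.0368, limma). The call for the pi class thus turned on a single value in Quinpirole 1, and the adjusted p ran from 0.0368 to 0.343 over the alternatives.

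**Figure D3:**
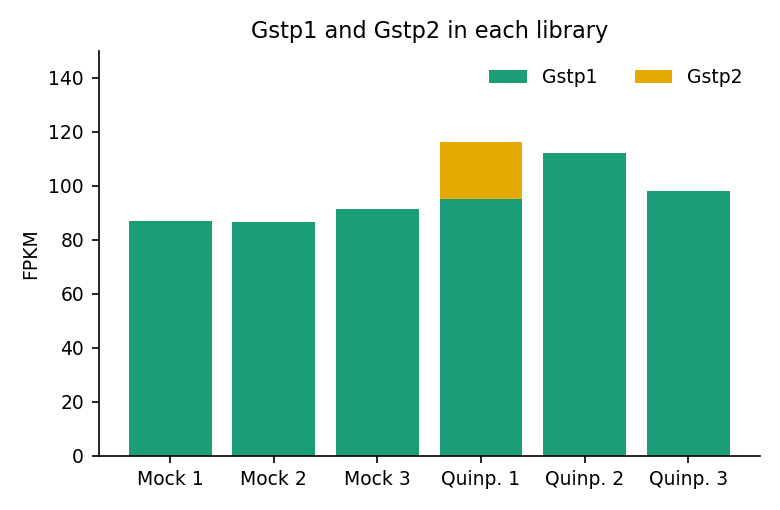
Stacked FPKM of *Gstp1* (green) and *Gstp2* (yellow) in each of the 6 libraries. *Gstp2* appears in Quinpirole 1 alone, at 21.2 FPKM, which lifts the sum of that library from 95.0 to 116.2 FPKM.

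*Gstt1*, a theta-class enzyme that acts on small halogenated compounds, was the member with a lower mean. It (ENSMUSG00000001663, chr10:75783813-75798584, minus strand) had 36.7, 37.5 and 42.8 FPKM in the Mock libraries and 35.6, 38.6 and 35.6 FPKM in the Quinpirole libraries. The groups overlapped, Mock 3 being highest and Quinpirole 2 lying above Mock 1 and Mock 2. Its log2 fold change was -0.09 (standard error 0.07, 95% interval -0.24 to 0.07, adjusted p = 0.40, limma), and after the length correction it was -0.20 with an adjusted p of 0.055 from limma.

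*Gstk1*, the kappa-class gene of mitochondria and peroxisomes, was the least precisely measured member. Its values (ENSMUSG00000029864, chr6:42245935-42250447, plus strand) were 4.10, 4.76 and 4.80 FPKM and then 4.72, 6.66 and 4.51 FPKM, of which Quinpirole 2 alone lay above the Mock range. The log2 fold change of 0.17 had a standard error of 0.13 and a 95% interval from -0.13 to 0.47 (adjusted p = 0.411, limma).

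Of the microsomal members, *Mgst1*, which protects membranes of the endoplasmic reticulum and mitochondria, was higher in every Quinpirole library. It (ENSMUSG00000008540, chr6:138140316-138156755, plus strand) had 87.3, 92.2 and 97.2 FPKM in the Mock libraries and 101.4, 102.9 and 99.7 FPKM in the Quinpirole libraries. A log2 fold change of 0.14 was fitted (standard error 0.05, 95% interval 0.03 to 0.24) with an adjusted p of 0.0899 from limma. Without Mock 3 the adjusted p was 0.0499 (limma), and without any other single library it lay between 0.134 and 0.215. *Mgst3* (ENSMUSG00000026688, chr1:167371966-167393841, minus strand), which also reduces lipid hydroperoxides, had 13.7, 12.8 and 14.5 FPKM and then 13.8, 17.3 and 15.6 FPKM. Quinpirole 1 lay inside the Mock range, and the log2 fold change of 0.17 (standard error 0.09, 95% interval -0.03 to 0.37) had an adjusted p of 0.216 from limma.

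As a share of the members' summed FPKM, *Gstm1* took 72.1%, 72.7% and 71.9% in the Mock libraries and 71.0%, 70.3% and 70.8% in the Quinpirole libraries. The sum of the 10 was 1218, 1292 and 1333 FPKM against 1314, 1399 and 1312 FPKM, with overlapping groups. Without *Gstm1* it was 339.7, 352.4 and 375.2 FPKM against 381.4, 415.5 and 383.8 FPKM, with every Quinpirole library higher. All FPKM of a library, however, also summed to more in the Quinpirole group (425244 to 437164, against 401769 to 413730). As a share of that total, the members other than *Gstm1* held 0.0846%, 0.0876% and 0.0907% in the Mock libraries and 0.0894%, 0.095% and 0.0903% in the Quinpirole libraries, and these overlapped.

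Transcript length moved with the direction of change across all genes, and the members are short. Their exonic lengths ran from 1097 to 2023 nt, with a median of 1538 nt against 4521 nt for the 12223 genes tested that had an annotated length. Those genes were divided by length into 10 bins of equal size. The bin of shortest genes, which held 8 members, had a median log2 fold change of 0.13, the next bin, which held *Gsto1* and *Mgst1*, of 0.10, and the bin of longest genes of -0.14. Against the median of their own bin, 7 members were above and 3 below, *Gstm1*, *Gstm5* and *Gstt1*. *Gstm4* was 0.21 above on the log2 scale, *Gsto1* 0.09 and *Gstp1* 0.07. When each library was corrected for the trend with length, the members' median log2 fold change was 0.05 (all genes 0.01), 8 members were higher, and *Gstm1* (-0.08) and *Gstt1* were lower. The log2 fold change of *Gsto1* was then 0.10 (adjusted p = 0.156, limma), that of *Gstm4* 0.24 (0.142), *Gstp1* 0.09 (0.288), *Gstm2* 0.08 (0.336) and *Mgst1* 0.04 (0.467). With this correction 0 members passed the threshold by limma. At an unadjusted p under 0.05 there were 4, *Gstm4* and *Gsto1* higher and *Gstm1* and *Gstt1* lower, beside 25.8% of all genes in either direction. The correction would also remove a true change that follows length, and the cause of the trend was not tested.

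**Figure D4:**
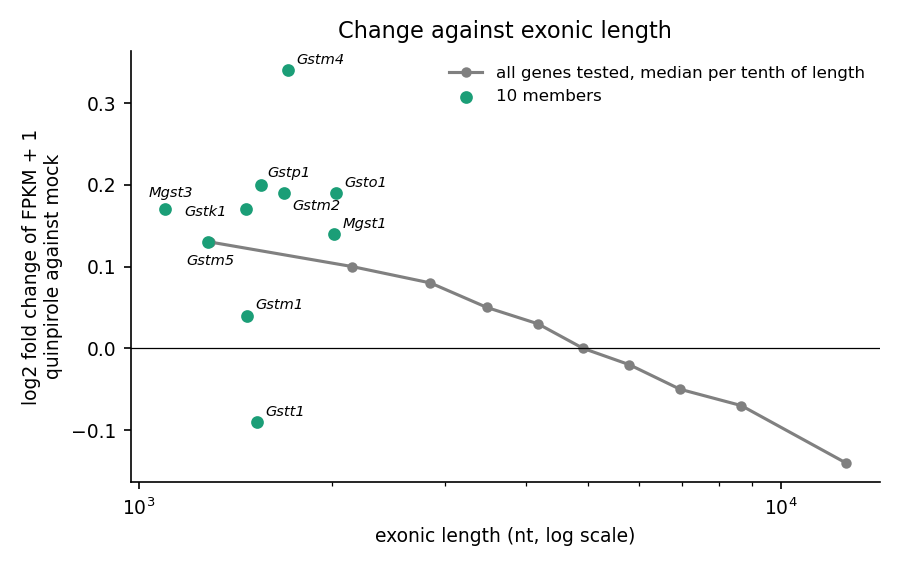
Log2 fold change of FPKM + 1 (quinpirole against Mock) against exonic length in nt on a log scale. The grey line joins the medians of all genes tested in 10 bins of length, which fall from 0.13 to -0.14, and green points are the 10 members, of which *Gstm4* lies farthest above the line and *Gstt1* farthest below it.

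The other genes of the same families were taken from a list of 20, of which 19 were in the tables and 11 were tested. This list, too, was chosen with earlier results of these data known. Of the 11, 8 had a higher mean and 3 a lower mean, compared with 53.8% of all genes higher. Beside 10.9% of all genes, 1 of the 11 passed, *Gstm6*. This mu-class neighbour had 12.2, 11.3 and 11.3 FPKM in the Mock libraries and 15.0, 15.9 and 13.7 FPKM in the Quinpirole libraries, with separate groups, and differed by 0.33 on the log2 scale (standard error 0.06, 95% interval 0.18 to 0.48, adjusted p = 0.0277, limma). After the length correction its log2 fold change was 0.24 (adjusted p = 0.077, limma). With 1 library left out, *Gstm6* passed without Mock 3 (0.048) and Quinpirole 3 (0.0476) and missed without Mock 1 (0.0732), Mock 2 (0.102), Quinpirole 1 (0.071) or Quinpirole 2 (0.0838), as adjusted p-values from limma. Over all genes, the same fits called 1215 and 210, and then 6, 3, 11 and 25. The *Gstm6* transcript shared 11.5% of its words with other genes. *Gsta4*, the alpha-class enzyme that conjugates 4-hydroxynonenal, had 61.7, 67.4 and 71.1 FPKM against 73.5, 82.3 and 74.3 FPKM, with separate groups, and did not pass (log2 fold change 0.20, adjusted p = 0.0867, limma). *Gstm7* and *Gstt3*, with log2 fold changes of -0.11 and -0.13, had overlapping groups. *Gstz1* of tyrosine breakdown (0.11) and the genes of prostaglandin and leukotriene synthesis, *Hpgds* (0.03), *Ptges* (-0.07), *Ptges2* (0.08), *Ltc4s* (0.22) and *Alox5ap* (0.15), did not pass either. *Gstp2*, described above, was the remaining gene tested, with a log2 fold change of 1.49 that rests on 1 library (95% interval -1.07 to 4.05, adjusted p = 0.39, limma). The other genes of the list had means under 1 FPKM and were not tested.

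**Figure D5:**
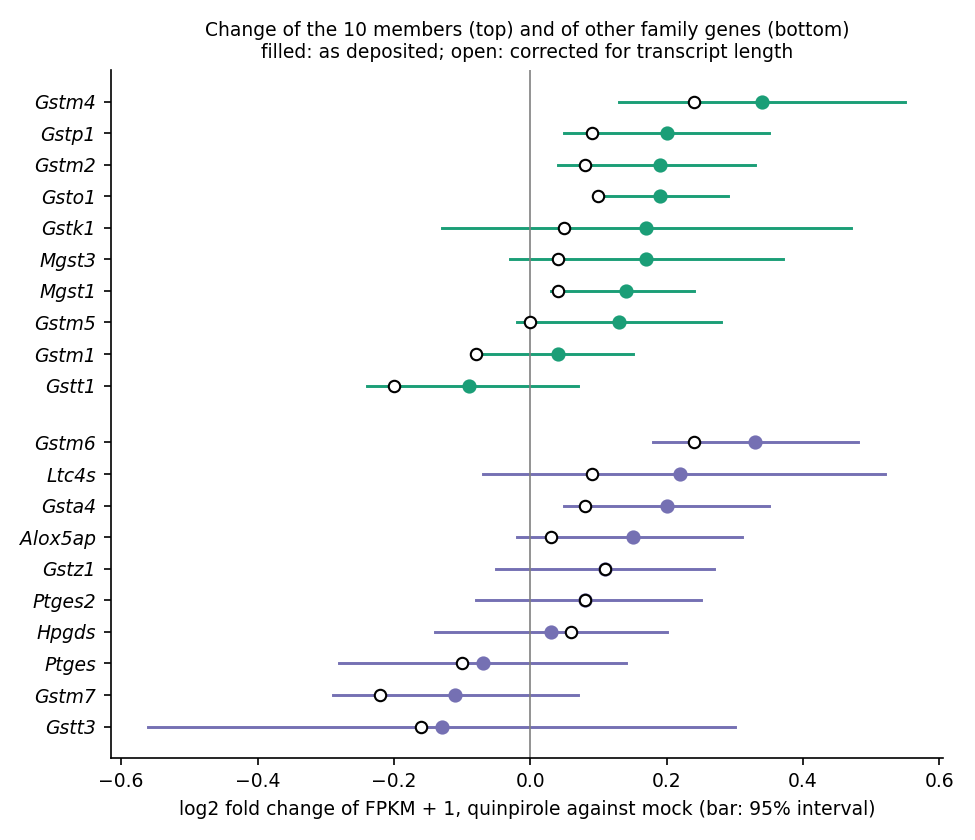
Log2 fold change of FPKM + 1 with its 95% interval from limma for the 10 members (top, green) and 10 other family genes (bottom, purple), without *Gstp2*. Open circles are the values after the correction for transcript length, which lie left of the filled ones for each of the 10 members and lie below 0 for *Gstm1* and *Gstt1*.

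Neighbouring steps of detoxification were taken from lists that were chosen with earlier results of these data known. Their counts stand beside those of all genes tested, of which 53.8% had a higher mean, 10.9% passed and 5.74% passed as higher. For the export of glutathione conjugates and the metabolism of mercapturates, in either direction, 23 genes were listed, 21 were found and 13 were tested. Of these, 6 were higher, 7 lower and 1 passed. This was *Acy1*, an aminoacylase, with 7.69, 7.69 and 6.54 FPKM against 8.74, 9.85 and 8.99 FPKM (log2 fold change 0.30, standard error 0.08, adjusted p = 0.0498, limma), which was not past the threshold in any of the 6 fits that left out 1 library (0.0755 to 0.139). The median log2 fold change of the 13 was -0.03, and 0.03 after the length correction. Of 25 genes of carbonyl and electrophile detoxification, all of them tested, 22 were higher, 3 lower and 4 passed, all higher. These were the quinone reductase *Nqo1* (log2 fold change 0.35, adjusted p = 0.0236), the retinaldehyde dehydrogenase *Aldh1a1* (0.25, 0.0362), the glutathione-dependent formaldehyde dehydrogenase *Adh5* (0.25, 0.0438) and the epoxide hydrolase *Ephx1* (0.14, 0.0438), all by limma. With single libraries left out, these 4 passed without Mock 3 (adjusted p 0.0344, 0.0413, 0.0417 and 0.0449) and did not pass without any other library. Over all genes, such fits called 1215 without Mock 3 and between 3 and 210 without any other library, so most calls were lost there. The median log2 fold change of the 25 was 0.11, and 0.07 after the length correction, under which *Aldh1a1* alone of these 4 was past the threshold (0.0499, limma).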

How the data were processed

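mRNA of ACSA-2+ astrocytes from 3 Mock and 3 Quinpirole libraries was sequenced. The authors trimmed the reads, and the submitters' processing notes name TopHat2 and GRCm38. The authors deposited 1 FPKM value per gene and library. The program that computed it, and its annotation, are not given in the sources used here. Read counts were not used here, and the steps between low values gave an estimate of depth (1254 genes, 55.7% to 64.0% of values within 0.1 of a whole fragment).

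Symbols were matched for 17090 of 17193 identifiers, and positions, lengths and transcripts came from GENCODE M21. Groups followed the labels. limma 3.58.1 in R 4.3.3 (lmFit, eBayes with trend, two-sided, Benjamini-Hochberg, threshold 0.05) was fitted to log2(FPKM + 1) for 12255 genes with a mean of at least 1 FPKM, and 1339 passed, 704 higher and 635 lower. Length correction subtracted, per library, a loess fit (span 0.3) of the deviation from the gene's mean on log2 exonic length. Library ratios were compared by exact permutation. Scripts were tested on simulated data first. Python 3.11.15, scipy 1.17.1 and Biopython 1.88 (coding alignments over ungapped columns) were used.

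The members and gene lists were chosen with earlier results of these data known. Named genes are all 10 members, other family genes with a mean of at least 1 FPKM and, from each list, up to 4 genes per direction past the threshold. Same-numbered libraries did not deviate together (correlations 0.03, -0.07 and -0.10). Alternatives were another pseudocount, other filters, scalings, variance settings and corrections, a replicate block and leaving out each library. The sum of *Gstp1* and *Gstp2* was added after the data had been seen. The 2 symbols of the conjugate list and 1 of the family list without an identifier in the tables (*Abcc2*, *Ggt6* and *Gstt4*) were not analysed here, and 1 microglial marker is not reported here.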

Additional observations from a re-analysis of the deposited data

How the results depend on the processing

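The number of genes past the threshold by limma (1339) was 633 without a filter on low values, 783 under quantile normalization (36.1% of them higher, against 52.6%), 714 with eBayes without trend (41.0% higher), 509 with the length correction and 375 with the length and GC correction. It was 2 with the replicate block and 0 with the replicate block and length correction together, where 2723 genes had an unadjusted p under 0.05. The labels do not say whether the replicate numbers pair the libraries. Same-numbered libraries had a mean correlation of deviations of -0.05, against 0.02 for different numbers. Deviations were taken from each group's mean, which ties these 2 values to each other, so they cannot exclude a pairing. Leaving out single libraries gave 6 genes without Mock 1, 3 without Mock 2 and 1215 without Mock 3. It gave 11 without Quinpirole 1, 25 without Quinpirole 2 and 210 without Quinpirole 3.

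Of the 10 members, 1 passed. The count was 0 with quantile normalization, the length correction, the length and GC correction, eBayes without trend, the replicate block, and the replicate block with the length correction, while 5, 4, 4, 5, 5 and 2 members had an unadjusted p under 0.05 by limma, beside 28.5%, 25.8%, 24.8%, 30.5%, 27.0% and 22.2% of all genes. Of these members, 2, 2, 1, 0, 0 and 1 were lower (*Gstt1* and, in the first 2 settings, *Gstm1*). It was 2 with robust estimation (*Gstm4* and *Gsto1*), and 0 to 2 with single libraries left out, 2 without Mock 3 (*Gsto1* and *Mgst1*) and 0 in each of the other 5 such fits. The members' median log2 fold change (0.17) was 0.05 with the length correction, with the length and GC correction and with the replicate block and length correction, and 0.11 to 0.21 with single libraries left out. *Gstm1* turned negative with quantile normalization (-0.11), the length correction (-0.08), the length and GC correction (-0.06) and the replicate block with the length correction (-0.08), and ran from -0.000884 to 0.06 with single libraries left out. In such fits *Hpgds* ran from -0.03 to 0.06 and *Ptges* from -0.14 to 0.00434. The cause of these shifts was not tested. The 7 named genes past the threshold had 119 values under the alternatives, of which 78 lost the call and 41 kept it. For the other 19 named genes, 3 values gained a call and 7 took the other sign. Count tests were not run on FPKM, and depth limits *Gstk1* and *Gstm4* most (counting error up to 8.44% and 7.5%).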
